A study of Mus musculus with 2 samples.

Results

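The Robo receptors Robo1, Robo2 and Robo4 and their secreted ligands Slit2 and Slit3 were followed in single cells of 2 kinds of mouse mammary tumor, as 5 of the 33696 genes in the deposited count matrices. The genes were chosen on values of these same data, namely their levels in blood endothelial, lymphatic, tumor and fibroblast cells, so those levels are given as a description and carry no test. The relatives Robo3 and Slit1 and a list of 38 genes of Slit-Robo signaling were read beside them.

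Both conditions were mammary tumors grown in the mammary fat pad of female C57BL/6 mice from tumor cells of the PyMT model, in which the polyoma middle T oncogene under the MMTV promoter gives rise to mammary carcinoma. The PyMT-M line gave the macrophage-enriched tumors (High-MAC) and the PyMT-N line the tumors without macrophage enrichment (Low-MAC). For each line 3 tumors were dissociated separately, depleted of leukocytes and red cells, enriched for endothelial cells and sorted on the endothelial surface proteins CD31 and CD144, then pooled into 1 library of the droplet-based 10x 3′ assay. Each condition was therefore 1 library, differences between the tumor lines cannot be told apart from differences between the libraries, and no p-value or SD could be formed from cells. Levels are sums of unique molecular identifiers (UMIs) over the cells of a class, scaled as CPM to all UMIs of that class, and all ranges in parentheses are exact 95% intervals (Poisson for levels and ratios, binomial for shares) that cover counting error only.

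Slit proteins are large secreted ligands that bind Robo receptors on neighboring cells and were first known as repellents of growing axons. In vessels, Robo1 and Robo2 take up Slit signals that steer endothelial migration, while Robo4 is the endothelial member of the family and is known for keeping vessels tight. Robo signals reach the actin cytoskeleton through the Srgap proteins, the Abl kinases, the Ena/Vasp proteins and small GTPases, and heparan sulfate proteoglycans help Slit bind.

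After cells with fewer than 200 genes or over 10% mitochondrial UMIs were removed, 6719 of 7821 barcodes remained for PyMT-M and 5607 of 6974 for PyMT-N, with medians of 21262 and 18558 UMIs. The libraries shared 20 barcode sequences. Although the sort was for endothelium, 4890 PyMT-M cells (72.8%) and 3297 PyMT-N cells (58.8%) carried the tumor markers Krt8, Krt18 or Rhox5 without Pecam1 or Flt1. Blood endothelial cells numbered 589 (8.77%) and 1069 (19.1%), with medians of 5202 and 12661 UMIs, and all 12 endothelial markers of the list were detected in each library, at 8679 and 8648 CPM together. Pecam1, Flt1, Emcn and Kdr of that list also define the class, so its rule partly fixes these sums. Lymphatic cells numbered 20 and 207, and fibroblast cells 45 and 54. The deeper Low-MAC endothelial cells give a higher chance of finding any gene, so shares of cells are also given after thinning each cell to 3000 UMIs. Cells with fewer than 3000 UMIs drop out of the thinned shares, which leaves 482 High-MAC and 1062 Low-MAC blood endothelial cells.

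To see where the receptor genes were used, Robo1 was first compared between the cell classes. Robo1, the main Slit receptor of migrating cells, gave 4681 UMIs in Low-MAC blood endothelial cells, a level of 313 CPM (304–322). In High-MAC blood endothelial cells it gave 103 UMIs, a level of 31.2 CPM (25.5–37.9). The PyMT-M over PyMT-N log2 ratio of the level was −3.33 (−3.62 to −3.04), which is 10.0-fold lower (8.25 to 12.3) in the High-MAC library.

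**Figure D1:**
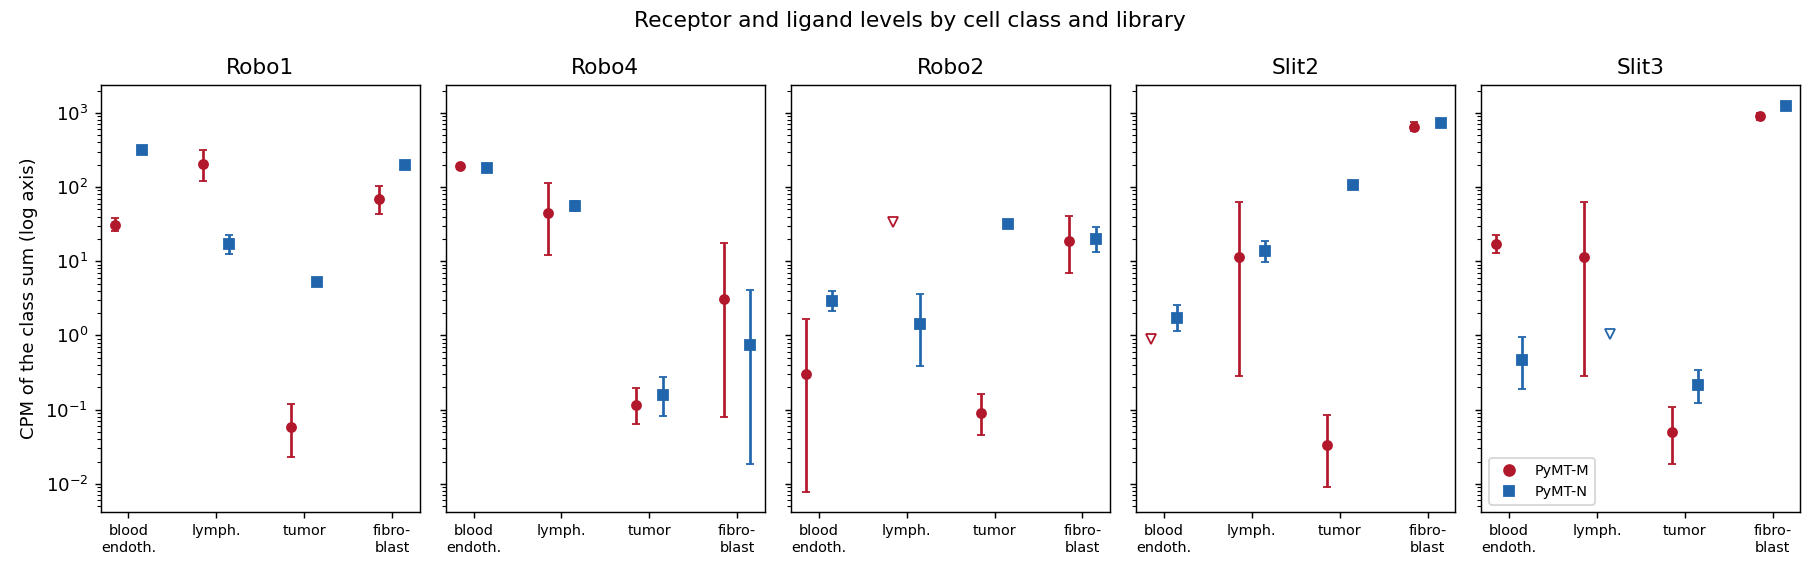
Level of each receptor and ligand gene in the 4 cell classes, in CPM on a log axis, with circles for PyMT-M, squares for PyMT-N and bars for exact 95% Poisson intervals; open triangles mark classes with 0 UMIs, drawn at the level of 3 UMIs. Robo1 in blood endothelial cells stood at 31.2 CPM for PyMT-M and at 313 CPM for PyMT-N, whereas Robo4 stood at 189 and 180.4 CPM, and Slit2 in tumor cells stood at 0.0332 and 106 CPM.

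Robo1 took place 71 from the lowest ratio among 8546 genes ranked with at least 200 UMIs in blood endothelial cells. In that ranking 4.18% of genes were at least 2-fold lower in PyMT-M and 2.5% at least 2-fold higher, and since Robo1 was chosen on this difference nothing is read from its place. Of the 5 genes, Robo1 and Robo4 had enough UMIs to be ranked, and Robo2, Slit2 and Slit3 did not.

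The Robo1 difference was then read as a share of cells and as an amount per cell. A Robo1 UMI was found in 47 of 589 High-MAC blood endothelial cells (7.98%, 5.92–10.5) and in 687 of 1069 Low-MAC cells (64.3%, 61.3–67.1). Among the 482 and 1062 cells with at least 3000 UMIs, thinned to that depth, the shares were 5.19% (3.38–7.56) and 41.2% (38.3–44.3). In tumor cells of the same libraries, thinned alike, the Robo1 share was 0% and 1.34%, with median depths of 23724.5 and 20770 UMIs before thinning. Among the unthinned cells the highest Robo1 count was 7 UMIs for High-MAC and 74 for Low-MAC tumors, and 148 Low-MAC cells (13.8%) but 0 High-MAC cells held 10 or more, at unequal depth. In thinned cells with Robo1 the mean was 1.52 UMIs in 25 High-MAC cells and 2.28 UMIs in 438 Low-MAC cells, and 4 (16%) and 133 (30.4%) of them held 3 or more. The same mean for Robo4 was 1.46 and 1.41 UMIs.

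Robo4, the endothelial Robo, stood at nearly the same level in both libraries. It gave 624 UMIs and 189 CPM (175–205) in High-MAC blood endothelial cells, and 2697 UMIs and 180.4 CPM (174–187) in Low-MAC cells. The log2 ratio was 0.07 (−0.06 to 0.19), so that the Low-MAC level was 0.954 times (0.874 to 1.04) the High-MAC level.

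The unthinned shares of cells with Robo4 were 59.1% (55–63.1) and 82.4% (80–84.7), but at 3000 UMIs they were 42.1% (37.7–46.7) and 42.4% (39.4–45.4). The ratio of the receptors needs no scaling to the library total: for each 100 Robo4 UMIs, blood endothelial cells held 16.5 Robo1 UMIs in the High-MAC and 173.6 in the Low-MAC library. In thinned Low-MAC cells Robo1 was present in 41.8% (37.2–46.5) of 450 cells with Robo4 and in 40.8% (36.9–44.9) of 612 cells without it. In High-MAC cells the shares were 4.93% (2.39–8.87) of 203 and 5.38% (3.04–8.71) of 279.

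**Figure D2:**
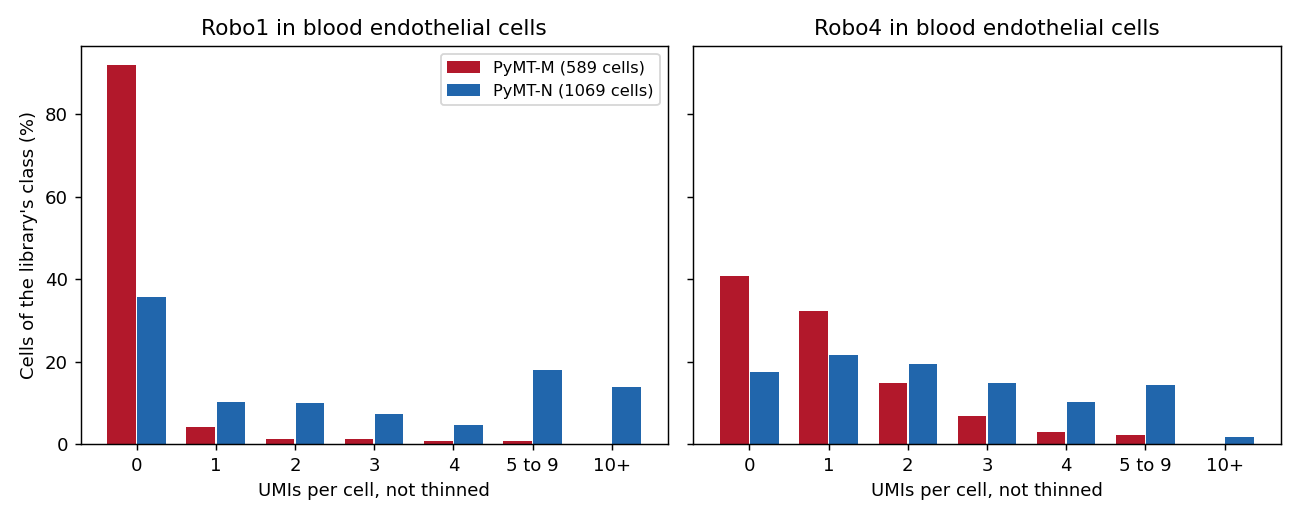
Percent of blood endothelial cells (vertical axis) by the number of Robo1 or Robo4 UMIs in the cell (horizontal axis), for PyMT-M and PyMT-N without thinning. Robo1 was at 0 in 542 of 589 PyMT-M cells and 382 of 1069 PyMT-N cells, whereas Robo4 counts overlapped widely, with medians of 1 and 2 UMIs.

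Outside the blood endothelium Robo4 stood lower in each class. It gave 159 UMIs (56.1 CPM, 47.7–65.5) in Low-MAC lymphatic cells and 4 UMIs (44.9 CPM, 12.3–115) in High-MAC lymphatic cells, which is below its blood endothelial level in each library. Of the 207 Low-MAC lymphatic cells 46.4% (39.4–53.4) had a Robo4 UMI, and after thinning 17.1% (12.2–22.9) of 205 cells did. In tumor cells Robo4 gave 14 and 12 UMIs, levels of 0.116 CPM (0.0634–0.195) and 0.159 CPM (0.0823–0.278), and a UMI was found in 0.286% and 0.364% of those cells. The fibroblast class gave 1 UMI in each library. In PyMT-M the intervals of the lymphatic and fibroblast levels overlapped, as did those of fibroblast and tumor cells.

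The order of the Robo1 levels was not the same in the libraries. In PyMT-N it ran from blood endothelial cells (313 CPM) through fibroblasts (199 CPM, 176–225) and lymphatic cells (16.9 CPM, 12.5–22.4) to tumor cells (5.23 CPM, 4.72–5.77). In PyMT-M it ran from lymphatic cells (202 CPM, 120–320) through fibroblasts (68.8 CPM, 43.1–104) and blood endothelial cells (31.2 CPM) to tumor cells (0.058 CPM, 0.0233–0.119). No neighboring intervals overlapped in either order, but the first place of lymphatic cells in PyMT-M rested on 3 cells.

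The High-MAC lymphatic value was carried by 18 UMIs in 3 of 20 cells, the highest with 8 UMIs. As a share of lymphatic cells, Robo1 was in 15% (3.21–37.9) for PyMT-M and 12.1% (7.97–17.3) of 207 for PyMT-N. After thinning the shares were 18.2% (2.28–51.8) of 11 and 4.39% (2.03–8.17) of 205 cells. The intervals of the shares overlapped both with and without thinning. In those 3 cells the lymphatic markers summed to 2029 CPM and the venous markers to 3528 CPM, against 5678 and 1197 CPM in the other 17. With at least 5 lymphatic marker UMIs asked of a cell, 16 cells with 6 Robo1 UMIs were left. The log2 ratio then went from 3.58 (2.71 to 4.39) to 2.10 (0.58 to 3.32). Whether the order of the classes held under that gate was not tested.

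In fibroblasts Robo1 was lower in PyMT-M, with 22 against 269 UMIs and a log2 ratio of −1.54 (−2.23 to −0.91). In tumor cells it was lower still, with 7 UMIs in 4890 cells against 394 UMIs in 3297 cells, a log2 ratio of −6.49 (−7.82 to −5.44). Low-MAC tumor cells held 394 Robo1 and 12 Robo4 UMIs, whereas Low-MAC blood endothelial cells held 4681 and 2697. The 285 Low-MAC tumor cells with Robo1 had 14.4 CPM of endothelial markers against 12.8 CPM in the tumor cells without it. The tumor class takes no cell with a Pecam1 or Flt1 UMI, so its rule partly fixes both sums. They cannot show whether the Robo1 UMIs came from endothelial cells. Fibroblast markers stood at 683 and 425 CPM, cycling genes at 315 and 155 CPM and leukocyte markers at 39.7 and 14.6 CPM. Tumor markers were lower with Robo1, at 1434 against 1869 CPM. The part of these markers in the Robo1 value was not tested.

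To ask which blood endothelial cells carried Robo1, markers of other cell types were read in cells with and without it. All 8 leukocyte markers were detected in both libraries, and their sum was 56.7 CPM in PyMT-M and 798 CPM in PyMT-N. In PyMT-N it was 2308 CPM in the 382 cells without a Robo1 UMI and 45.7 CPM in the 687 cells with one. Without the cells that held 2 or more leukocyte UMIs, the log2 ratio of Robo1 was −3.51 and that of Robo4 −0.02.

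The mural markers, which label pericytes and smooth muscle, differed between the libraries in kind. In PyMT-N their sum of 267 CPM came from Kcnj8 (117 CPM) and Abcc9 (142 CPM), which encode the pore and the regulatory subunit of a potassium channel gated by ATP, while the defining markers Rgs5 (2.88 CPM), Acta2 (1.74 CPM) and Notch3 (0.201 CPM) were low and Des was at 0. In PyMT-M all 8 were detected, with Acta2 at 118 CPM, Rgs5 at 50.02 CPM, Abcc9 at 25.8 CPM and Kcnj8 at 9.40 CPM. Summed over the 47 High-MAC cells with Robo1, mural markers stood at 1345 CPM and fibroblast markers at 262 CPM. The other 542 held 106 and 21.6 CPM. Acta2 stood at 843 CPM in High-MAC cells with Robo1 and 36.75 CPM in those without it, and Rgs5 at 304 and 21.6 CPM. These are pooled sums, and how many of the 47 cells carried the mural markers was not counted.

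Robo1 went with the channel genes in Low-MAC cells, a split chosen after the values were seen. Kcnj8 stood at 162 CPM in cells with Robo1 and 26.9 CPM in cells without it, and Abcc9 at 184 and 56.5 CPM. In turn, Robo1 stood at 476 CPM (459–494) in the 442 thinned cells with a UMI of either channel gene and at 197 CPM (188–207) in the other 620, and its thinned share was 58.1% (53.4–62.8) against 29.2% (25.6–33.0). Robo4 stood at 197 CPM (186–208) and 169 CPM (161–178) in the same cells. In PyMT-M 41 cells had a channel gene UMI, with Robo1 at 59.4 CPM (33.2–98), and 441 did not, with Robo1 at 31.0 CPM (24.8–38.2).

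Leaving out every cell with 2 or more mural UMIs kept 554 and 515 blood endothelial cells and gave a Robo1 log2 ratio of −2.32, 4.99-fold lower in PyMT-M. Leaving out cells by the mural markers apart from Kcnj8 and Abcc9 kept 579 and 1056 cells and gave −3.42. The kept cells held 95 of the 103 High-MAC and 4630 of the 4681 Low-MAC Robo1 UMIs. The part of these other cell markers in the Robo1 difference was not tested beyond these values.

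Blood endothelial cells were then ranged by lists of state genes, each cell scored by its thinned UMIs of a list and the cells above the 80th percentile set against the rest. These are ranges of a score and not cell types. In Low-MAC cells Robo1 was higher in the arterial range, at 442 CPM (418–468) against 284 CPM (274–293) in the rest, and lower in the cycling range, at 206 CPM (190.3–223) against 342 CPM (331–352). It was also lower in the interferon range, at 219 CPM (201–237) against 334 CPM (324–344). The tip, capillary and venous ranges moved the level less, with log2 differences of 0.15, 0.24 and −0.18.

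With the top 10% of cells in place of the top 20%, the Low-MAC arterial difference went from 0.64 to 0.18, the cycling difference from −0.73 to −1.18 and the venous difference from −0.18 to −1.14. In High-MAC cells, by the top 20%, Robo1 stood at 6.67 CPM (1.82–17.1) in the capillary range, from 4 UMIs, and at 39.8 CPM (32.3–48.5) in the rest. The cycling range was lower there too, at 17.3 CPM (8.96–30.3) against 37.9 CPM (30.5–46.6), but with the top 10% its log2 difference of −0.71 (−1.89 to 0.27) held 0. For the other 4 lists the interval of the top 20% difference held 0. By the top 10% the venous range had 0 Robo1 UMIs against 102 in the rest, with an upper limit of −1.30 for the log2 difference.

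**Figure D3:**
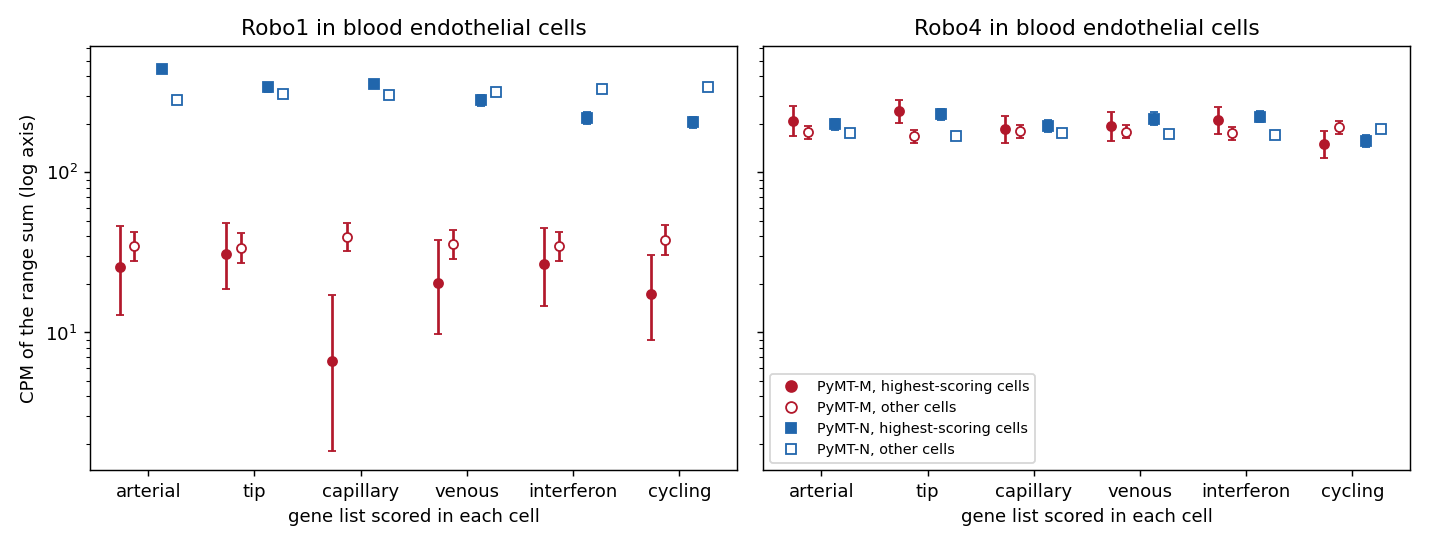
Robo1 and Robo4 levels in blood endothelial cells, in CPM on a log axis, in the highest-scoring cells (filled) and the other cells (open) of 6 gene lists, with circles for PyMT-M, squares for PyMT-N and bars for exact 95% Poisson intervals. All PyMT-M values of Robo1 lay below all PyMT-N values, whereas the Robo4 values of the libraries overlapped. The highest-scoring cells were set in each library separately.

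Robo4 varied less across the ranges. By the top 20% it was higher in the tip range of both libraries, at 241 CPM (204–283) against 168 CPM (152–185) in PyMT-M and 231 CPM (213–250.3) against 169.6 CPM (162–177) in PyMT-N, and lower in the cycling range of both, at 150.3 against 192 CPM and 158 against 186.5 CPM. In PyMT-N Robo4 was also higher in the interferon range, at 223 against 171 CPM, a log2 difference of 0.38 (0.25 to 0.51). The venous difference there was 0.31 (0.17 to 0.46) and the arterial one 0.18 (0.04 to 0.31). In PyMT-M the interval held 0 for each of these lists. By the top 10% the tip difference was 0.22 (−0.17 to 0.59) in PyMT-M, which held 0, and 0.55 (0.39 to 0.71) in PyMT-N. Within the 12 ranges of the top 20% the PyMT-M over PyMT-N log2 ratio ran from −5.74 to −2.93 for Robo1 and from −0.15 to 0.08 for Robo4. The capillary range gave the lowest of the Robo1 values and the cells outside it the highest. Since each library had its own cuts, these ratios do not compare cells matched for state.

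Robo2, a receptor best known from the nervous system and kidney, was found mainly in Low-MAC tumor cells. It gave 2366 UMIs there, a level of 31.4 CPM (30.1–32.7), and 11 UMIs in High-MAC tumor cells, a level of 0.0912 CPM (0.0455–0.163). The log2 ratio was −8.43 (−9.43 to −7.59). In PyMT-N 601 of 3297 tumor cells (18.2%, 16.9–19.6) had a Robo2 UMI, up to 42 in 1 cell, so the counts were concentrated in a minority of cells. Thinned to 3000 UMIs, 6.98% of Low-MAC and 0.0409% of High-MAC tumor cells had one.

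Fibroblasts held Robo2 at 18.8 CPM (6.88–40.8) in High-MAC and 20.01 CPM (13.2–29.1) in Low-MAC tumors, a log2 ratio of −0.09 (−1.66 to 1.21). That ratio depended on the gate, at −0.95 (−2.50 to 0.32) with the class rules as written and −2.25 (−3.73 to −1.06) with Col3a1 at 1000 CPM or more. In blood endothelial cells Robo2 gave 1 High-MAC UMI and 44 Low-MAC UMIs, the latter in 16 cells, the ratio being 9.71-fold lower in PyMT-M (1.65 to 392). Without cells holding any tumor marker UMI 22 Low-MAC UMIs were left and the log2 ratio went from −3.28 to −2.37 (−7.74 to 0.26), and without the deepest 10% of cells it was −2.47 (−7.83 to 0.14), so both intervals held 0. For comparison with the Robo2-rich tumor cells, Low-MAC blood endothelial cells held 44 Robo2 and 26 Slit2 UMIs and Low-MAC tumor cells 2366 and 7997. The Low-MAC levels in blood endothelial cells (2.94 CPM, 2.14–3.95) and lymphatic cells (1.41 CPM, 0.384–3.61) had overlapping intervals.

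**Figure D4:**
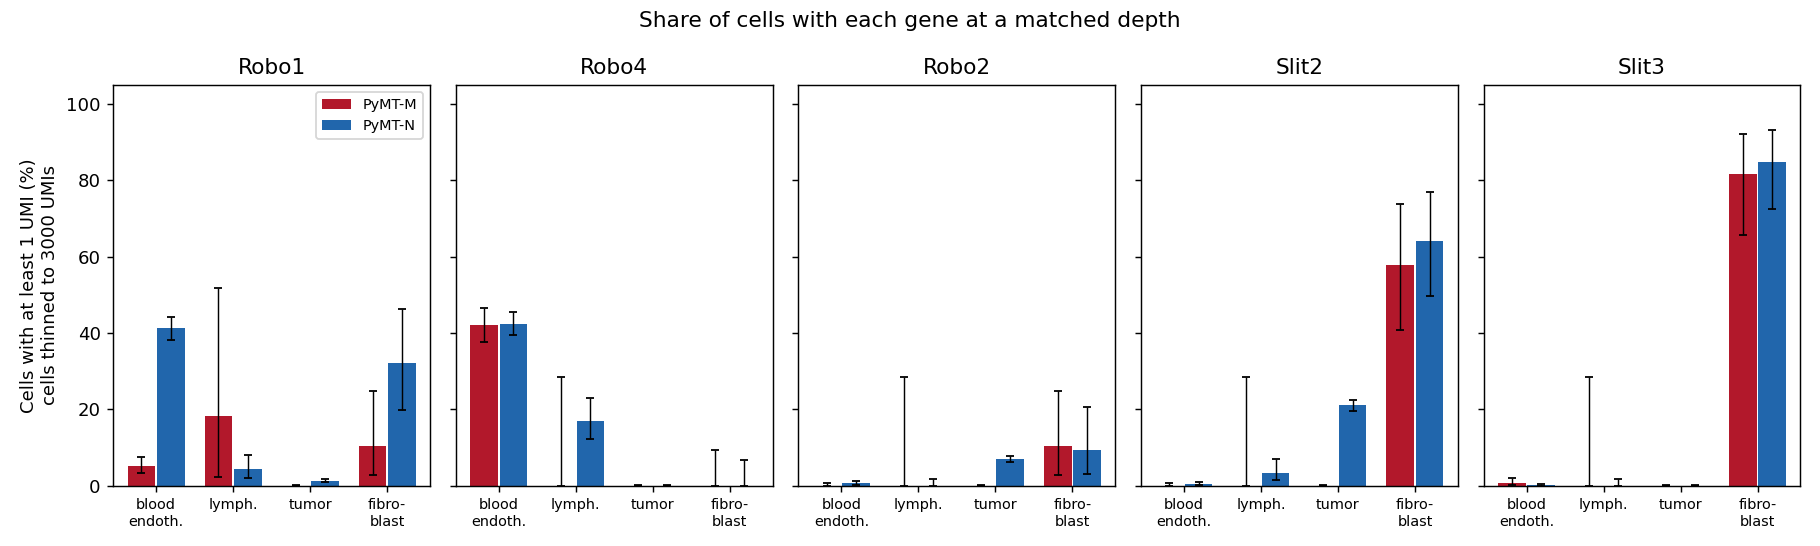
Percent of cells with at least 1 UMI of each gene after thinning to 3000 UMIs per cell, by cell class, for PyMT-M and PyMT-N, with exact 95% binomial intervals. Cells with fewer than 3000 UMIs are left out. Robo1 was in 5.19% of PyMT-M and 41.2% of PyMT-N blood endothelial cells and Robo4 in 42.1% and 42.4%, while Slit2 was in 0% and 21.1% of tumor cells.

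The ligands were then traced to their source cells. Slit2, a secreted ligand of Robo1 and Robo2, gave 7997 UMIs and 106 CPM (104–108) in Low-MAC tumor cells and 4 UMIs and 0.0332 CPM (0.009–0.0849) in High-MAC tumor cells. The log2 ratio was −11.64 (−13.52 to −10.29). A Slit2 UMI was found in 59.3% (57.6–61.0) of Low-MAC and 0.0818% (0.0223–0.209) of High-MAC tumor cells, and after thinning in 21.1% and in 0 of 4889 (exact 95% upper limit 0.0754%).

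Since Slit2, Robo1 and Robo2 were chosen on these levels, their place in the tumor cell ranking is given only beside its background, in which 22.3% of 12546 genes were at least 2-fold lower and 19.7% at least 2-fold higher in PyMT-M. All 3 were among the lower genes and nothing is read from it. In thinned Low-MAC tumor cells Robo2 was present in 9.78% (7.68–12.2) of 695 cells with Slit2 and in 6.23% (5.33–7.23) of 2600 cells without it.

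Fibroblasts held Slit2 at a similar level in both libraries, 653 CPM (568–748) from 209 UMIs in PyMT-M and 728 CPM (683–775) from 982 UMIs in PyMT-N. These UMIs were uneven over cells, with 39 in 1 PyMT-M cell and 194 in 1 PyMT-N cell. At unequal depth, 16 of 45 and 6 of 54 fibroblasts held 0. The log2 ratio of the level was −0.16 (−0.38 to 0.06), but the gate on cells moved it beyond this interval, and with Col3a1 at 1000 CPM or more it was −0.87 over 72 and 91 cells. Of all Slit2 UMIs in kept cells, 89.7% of 233 fell in fibroblasts in PyMT-M, whereas in PyMT-N 72.3% of 11066 fell in tumor cells and 8.87% in fibroblasts.

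Blood endothelial cells gave 0 Slit2 UMIs for PyMT-M, against 26 in 13 cells for PyMT-N, so the PyMT-M level was at least 1.91-fold lower with 3 UMIs taken as the limit of a count of 0, and at least 1.45-fold lower by the exact interval of the ratio. Low-MAC lymphatic cells held 39 Slit2 UMIs in 9 cells. In those 9 cells the tumor markers summed to 829.5 CPM and the lymphatic markers to 5836 CPM, against 59.3 and 16219 CPM in the other 198, and the part of this in the Slit2 value was not tested.

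Slit3, a ligand of the same family, was found mainly in the fibroblast class in both libraries. That class also held mural markers, at 1050 CPM in PyMT-M and 1876 CPM in PyMT-N, and no mural class was set. It gave 286 UMIs and 894 CPM (793–1004) in High-MAC fibroblasts and 1675 UMIs and 1241 CPM (1183–1302) in Low-MAC fibroblasts, a log2 ratio of −0.47 (−0.66 to −0.29). After thinning it was found in 81.6% and 84.9% of fibroblasts. Fibroblasts held 65.3% of the 438 Slit3 UMIs in PyMT-M and 97.6% of the 1716 in PyMT-N. Slit2 was present in 19 of 31 thinned High-MAC fibroblasts with Slit3 (61.3%, 42.2–78.2) and in 31 of 45 Low-MAC ones (68.9%, 53.4–81.8).

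In High-MAC blood endothelial cells 57 Slit3 UMIs (17.3 CPM, 13.1–22.4) were counted, against 7 UMIs (0.468 CPM, 0.188–0.965) in Low-MAC cells, a log2 ratio of 5.21 (4.07 to 6.58). The 57 UMIs lay in 8 of 589 cells, with 28 in 1 cell. Those 8 cells held 8940 CPM of mural and 1730 CPM of fibroblast markers, against 54.7 and 11.8 CPM in the other 581. Without cells with 2 or more UMIs of the fibroblast, leukocyte or mural markers, 5 and 6 Slit3 UMIs were left and the log2 ratio was 0.58 (−1.47 to 2.56).

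Of the relatives, Slit1 ran opposite to Slit2 in tumor cells. It gave 981 UMIs and 8.13 CPM (7.63–8.66) in High-MAC tumor cells, in 16.1% of cells, and 6 UMIs and 0.0796 CPM (0.0292–0.173) in Low-MAC tumor cells, a log2 ratio of 6.67 (5.55 to 8.12). Thinned to 3000 UMIs, 2.45% of High-MAC and 0% of Low-MAC tumor cells had a Slit1 UMI. Low-MAC fibroblasts held 21 Slit1 UMIs and High-MAC fibroblasts 0. Robo3, a divergent receptor of commissural neurons, gave at most 17 UMIs in any class, those in Low-MAC lymphatic cells.

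Of the 38 genes of the pathway list, 27 could be ranked in blood endothelial cells, and 3 of these (11.1%) were at least 2-fold lower in PyMT-M, 0 were at least 2-fold higher and 24 lay between, where all 8546 ranked genes gave 4.18% lower and 2.5% higher. The median log2 ratio of the list was −0.18, against −0.0042 for all genes ranked. The 3 lowest were Ntn1, which encodes the guidance cue netrin, at −2.92 (−4.38 to −1.78), the actin regulator Enah at −1.86 (−2.40 to −1.36) and the netrin receptor gene Unc5b, whose protein also binds Robo4, at −1.18 (−1.38 to −0.98). The 3 highest, Plxna1 at 0.46, Dag1 at 0.39 and Arf6 at 0.23, lay within 2-fold. Ntn1 rested on 6 High-MAC and 206 Low-MAC UMIs. The pathway list was not run under the alternative settings. Under these the share of all ranked genes that were lower ran from 1.22%, without cells with other markers, to 6.93%, with genes ranked from 50 UMIs.

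The genes that carry Robo signals inside the cell ran from lower to slightly higher in PyMT-M, and those named here were picked after their values were seen. Srgap1, a Robo-binding GTPase regulator, stood at 143 CPM in High-MAC and 270.5 CPM in Low-MAC cells, with a log2 ratio of −0.92 (−1.06 to −0.78), and Srgap2 at 212 and 252 CPM. The kinase gene Abl1 had a log2 ratio of −0.92 (−1.21 to −0.64) and the Ena/Vasp gene Evl of −0.81 (−1.01 to −0.62), beside Enah above, while Vasp stood at −0.21 and Abl2 at −0.18. The GTPase genes Rhoa, Rac1 and Cdc42 had log2 ratios of −0.01, 0.06 and −0.09. Sos1 stood at 0.21 (−0.01 to 0.43), Nck1 at 0.10, Git1 at 0.10 and Sos2 at 0.01, beside Arf6 above. On the lower side Pxn stood at −0.32, Nck2 at −0.29, Myo9b at −0.15 and Cap1 at −0.07.

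**Figure D5:**
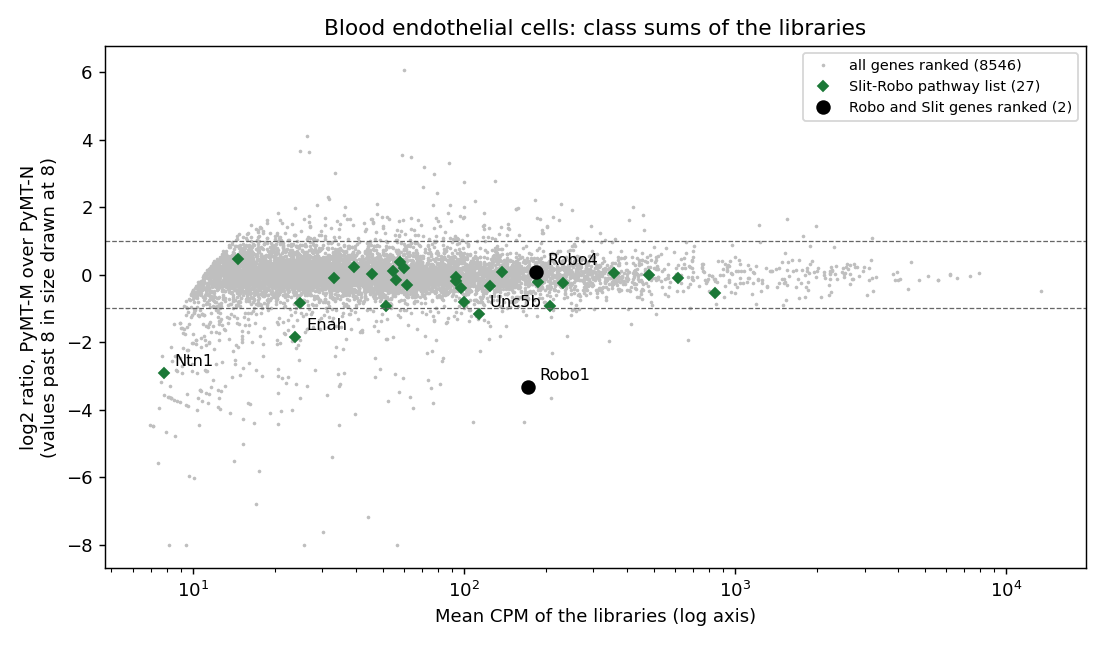
PyMT-M over PyMT-N log2 ratio (vertical axis) against the mean CPM of the libraries on a log axis (horizontal) for the 8546 genes ranked in blood endothelial cells in gray, with the 27 pathway genes as green diamonds and Robo1 and Robo4 in black; dashed lines mark a 2-fold difference. Robo1 lay at −3.33 and Robo4 at 0.07, and Ntn1, Enah and Unc5b were the pathway genes past the lower line.

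In tumor cells 35 pathway genes could be ranked, of which 10 (28.6%) were at least 2-fold lower and 1 (2.86%) at least 2-fold higher in PyMT-M, beside 22.3% and 19.7% of all 12546 ranked genes. The list median was −0.34 against −0.04 for all genes ranked. Among the genes of proteoglycans and their synthesis, Gpc4 had a log2 ratio of −9.60, Sdc3 of −6.53, Ext1 of −3.51 and Sdc2 of −2.86, whereas Sdc4 stood at 0.73 and Gpc1 at −0.44. Flrt3, whose protein is a Robo coreceptor, stood at −4.88. Srgap3 was the gene that was higher, at 73.4 against 12.9 CPM and a log2 ratio of 2.51 (2.42 to 2.61).

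The genes most like each receptor and ligand were found from the Pearson correlation of log2(CPM + 1) over the 6 class sums with at least 50 cells, among 11801 genes with at least 500 UMIs. These sums share libraries and depth, so the values describe the profiles only. The correlation also takes no account of how far a level moves. Over these sums Robo1 ran from 0.058 to 313 CPM, but Rab1a from 89.2 to 172 CPM. Arf5 (339 to 535 CPM), Arl1 (97.9 to 210 CPM) and 2310022B05Rik (23.1 to 43.7 CPM), named below, moved little too. Robo1 was most like Rab1a (r = 0.990), Trpm4 (0.983), Gm15270 (0.981), Ppp1r10 (0.971) and Crtc3 (0.970). Among the genes most like Robo2 were Elk1 (0.993), Arf5 (0.983), Pdgfc (0.982) and Pdha1 (0.979).

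Among the genes most like Robo4 were Sorbs2 (0.998), Colgalt2 (0.996), Rap1b (0.996) and Dipk2b (0.996), and 320 genes had an r over 0.95 with it, against 19 with Robo1. Slit2 was most like Lama1 (0.996), Arl1 (0.996), Snhg18 (0.994), Zfhx4 (0.992) and Wnt5a (0.992). Slit3 was most like Meg3 (0.998), 2310022B05Rik (0.994), Slc25a44 (0.990), Ckap4 (0.990) and Zfp33b (0.988).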

How the data were processed

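Single cells of 2 libraries (10x 3′ v3.1) were analysed from the deposited counts, which are whole UMI counts per gene and cell that the authors made with Cell Ranger 8.0.0 on mm39, per the submitters' processing notes; the sources used here do not give the annotation, whether intronic reads were counted or whether doublets were removed, and no doublet caller was run. The labels name collagenase I for the dissociation and the study's methods name collagenase II with dispase II.

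Cells with at least 200 genes and at most 10% mitochondrial UMIs were kept. Blood endothelial cells had at least 5 UMIs of Pecam1, Flt1, Emcn and Kdr and at most 1 of Krt8, Krt18 and Rhox5, lymphatic cells at least 3 of Prox1, Mmrn1 and Reln, tumor cells at least 3 of Krt8, Krt18 and Rhox5 with 0 of Pecam1 and Flt1, and fibroblasts Col3a1 at 3000 CPM or more. A cell that met both endothelial rules was counted as lymphatic (8 High-MAC and 174 Low-MAC cells), while any other cell that met 2 rules was left out (13 and 9). UMIs were summed per class and library, since cells are not replicates, and no test was run. The ranking by ratio took genes whose UMIs in both libraries summed to 200 or more, and a count of 0 was bounded at 3 UMIs. Intervals and bounds cover counting error only. The text names the 5 genes, Robo3, Slit1, the 3 highest and 3 lowest ranked pathway genes, further pathway genes chosen by role after their values were seen, and the 5 genes most like each by profile, of which some are not reported here. The members and all lists were chosen with earlier results of these data known. Alternatives covered cell filters, class gates, scaling, thinning and removal of cells with other markers; those for leukocyte or mural markers alone were added after the data were seen. Ratios and their intervals were tested on simulated Poisson counts, the model the intervals assume, so that test says nothing of spread between cells. Thinning was checked on real PyMT-M cells, for the depth reached only. The work was done with scipy 1.17.1, numpy 2.4.6 and pandas 2.3.3 in Python 3.11.15, and figures with matplotlib 3.10.9. Protein sequences were not used here.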

Additional observations from a re-analysis of the deposited data

Results flagged for a closer look

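The PyMT-M over PyMT-N ratio of Robo1 differed in direction between cell classes, with counting intervals that did not hold 0 on either side. Its log2 ratio was 3.58 in lymphatic cells, where 18 High-MAC UMIs in 3 cells carried it, and −3.33 in blood endothelial cells, −6.49 in tumor cells and −1.54 in fibroblasts. The shares of lymphatic cells with Robo1 had overlapping intervals, so the lymphatic direction was not seen in the shares. Slit3 likewise had a log2 ratio of 5.21 in blood endothelial cells, from 8 High-MAC cells with mural markers, and of −2.09 in tumor cells, from 6 and 16 UMIs, and −0.47 in fibroblasts. The tumor value of Slit3 was −0.42 (−1.15 to 0.31) with the class rules as written and −1.29 (−3.06 to 0.37) without the deepest 10% of cells, and both intervals held 0. Its blood endothelial value without cells with other markers was 0.58 (−1.47 to 2.56). In thinned fibroblasts its value was −0.33 (−0.69 to 0.01), and these intervals held 0 too. With 1 library per condition the difference was not tested in either gene.

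Cells that met no class rule, 1162 in PyMT-M and 971 in PyMT-N, are in none of the comparisons and also carried these genes above the 3 counts that bound a 0, apart from Slit3 in PyMT-N with 3 UMIs. In PyMT-N they held Slit2 at 98.4 CPM, Robo1 at 34.1 CPM, Robo2 at 28.5 CPM and Robo4 at 20.4 CPM. In PyMT-M they held Robo4 at 6.73 CPM, Slit3 at 3.43 CPM, Robo1 at 1.92 CPM, Slit2 at 0.528 CPM and Robo2 at 0.33 CPM.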

How the results depend on the processing

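No paired analysis was possible because each condition is 1 library. Of the 158 alternative ratios that could be formed, 139 stayed within the counting interval of the value given and 0 of the ratios past 2-fold turned direction. Some could hardly leave it. The class rules as written kept the same 20 and 207 lymphatic cells, and some intervals were wide, such as −5.63 to 2.27 for lymphatic Slit2. The count of 139 is therefore not read as a measure of stability. Over its alternatives the blood endothelial log2 ratio of Robo1 ran from −3.57 to −2.32 and that of Robo4 from −0.03 to 0.20. The class rules as written gave Robo1 −2.99 in blood endothelial cells, Slit2 −9.75 in tumor cells and Slit2 −0.73 and Slit3 −0.88 in fibroblasts. Without cells with other markers (440 Low-MAC cells left), Robo1 was at −2.59 and Slit3 at 0.58, and without cells with mural markers Robo1 was at −2.32, Robo4 at 0.20 and Slit3 at 0.85, or at 1.70 where Kcnj8 and Abcc9 were not counted as mural. Slit3 in blood endothelial cells was at 3.45 without the deepest 10% of cells and at 3.92 as a mean over cells. Fibroblast Slit2 and Slit3 were at −0.68 and −0.66 without the deepest cells and at −0.87 and −0.75 with Col3a1 at 1000 CPM, and lymphatic Robo1 was at 2.10 with 5 marker UMIs. The cause of these shifts was not tested.

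The counts of genes at least 2-fold lower and higher in blood endothelial cells, 357 and 214, were 801 and 474 with genes ranked from 50 UMIs, 111 and 110 in thinned cells, 74 and 97 without cells with other markers, and 219 and 106 without cells with mural markers; the lower count was 236 without the deepest cells and 222 without cells with leukocyte markers. At 5000 UMIs per cell Robo1 was in 8.17% and 51.8% and Robo4 in 54.9% and 57.1% of blood endothelial cells, and at 3000 UMIs in 5.19% and 41.2% and in 42.1% and 42.4%. Of the 589 and 1069 blood endothelial cells, 306 and 1022 reached 5000 UMIs and 482 and 1062 reached 3000. Of tumor cells at 3000 and 5000 UMIs, Slit2 was in 0% and 0% in PyMT-M and in 21.1% and 30.5% in PyMT-N, and Robo2 in 0.0409% and 0.082% and in 6.98% and 9.38%. Each of these shares was lower at 3000 than at 5000 UMIs, apart from the 0% of Slit2 in PyMT-M. The cells that reach each depth also differ, and the High-MAC Robo1 share at 5000 UMIs lay above the unthinned 7.98%. With the top 10% of scores, the Low-MAC Robo1 difference was 0.18 for the arterial, 0.37 for the capillary, −1.18 for the cycling and −1.14 for the venous list. The High-MAC Robo1 difference was 0.46 for the interferon list, and the High-MAC Robo4 difference −0.42 for the capillary and 0.22 for the tip list. The High-MAC capillary and venous ranges had 0 Robo1 UMIs, which gives only upper limits of the log2 difference, −1.36 and −1.30. Fibroblasts could not be compared without cells with other markers, since 0 Low-MAC cells were left. In tumor cells that setting left 95 High-MAC and 103 Low-MAC cells, and no ratio was formed. Thinned tumor cells gave no ratio for Robo1 or Slit2, since 0 High-MAC cells had either gene. The largest tumor differences were therefore not read under these alternatives. The 20 High-MAC lymphatic cells, with a limit of 33.7 CPM for a count of 0, set what can be seen in that class.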
